A study of Mus musculus with 32 samples.

Results

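Glycolysis breaks glucose down to pyruvate, and the transcription factor HIF1 is a main activator of the genes that run it. The genes described here are 37 mouse genes named by symbol for these roles, of 56953 genes in the count table, and all 37 passed the filter on low counts that left 14427 genes for testing. By role, 21 act in glucose uptake, glycolysis or lactate handling and 16 are controllers or known targets of HIF1. They were measured by RNA sequencing of bone marrow-derived macrophages, cells grown from mouse marrow with M-CSF supplied as supernatant of L929 cells. The study compared cells of 2 Acod1 genotypes that were left untreated or were given dexamethasone (Dex), a synthetic glucocorticoid, lipopolysaccharide (LPS), a bacterial wall component that activates macrophages, or both, and its stated aim was to examine how glucocorticoids counter inflammation. Acod1, also called Irg1, encodes the enzyme that makes itaconate in activated macrophages.

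HIF1 is a dimer of the regulated HIF1α subunit, encoded by Hif1a, and a constant partner. When oxygen is present, prolyl hydroxylases (the Egln genes) mark HIF1α for destruction by the von Hippel-Lindau protein (Vhl). Macrophages activated with LPS are known to stabilise HIF1α in the presence of oxygen and to shift towards glycolysis and lactate release.

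Each of the 8 groups (WT and KO, each as control, Dex, LPS and Dex+LPS) held 4 libraries. WT stands for the libraries labelled Acod1 WT and KO for those labelled Acod1 KO, all on a C57BL/6J background, from mice of 8 to 12 weeks. The growth text names both purchased C57BL/6J mice and Irg1+/+ mice as sources without saying which gave the WT libraries. Dex was used at 100 nM and LPS at 100 ng, given without a volume, and both acted for 24 h. The labels number the libraries of a group but do not say whether they came from separate animals, so each p-value reflects only how far these libraries differ among themselves, which may be technical variation. Because the RNA was extracted from whole cultures, fewer cells of a type and less RNA per cell cannot be told apart.

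Library totals ran from 17559079 to 25049200 counted read pairs. All 12 listed macrophage markers were present, at a summed level of 17963 to 31978 CPM (counts scaled to library size; CPM stays the unit throughout). Of the lists for other cell types, some defining genes were at or near 0: over all 32 libraries Ly6g had 5 counts, Pax5 had 3, Cd3e had 0, Fcer1a had 0 and Pdgfra had 2. Other listed genes moved with treatment. The summed dendritic cell list ranged from 0.903 to 1.45 CPM in WT control and from 16.1 to 17.3 CPM in WT Dex, mostly Flt3, and the fibroblast list from 0 to 0.308 CPM in WT control and from 1.53 to 3.07 CPM in WT LPS, mostly Dcn. The T and NK cell and mast cell lists did not pass 4.96 and 1.15 CPM in any library. S100a8 of the neutrophil list had a mean of 0.026 CPM in WT control against 11.9 in WT Dex+LPS. The summed B cell list, which is almost all Ighm, ranged from 99.2 to 107 CPM in WT control and from 0.17 to 0.771 CPM in WT LPS, and the summed neutrophil list, mostly Mmp8, ranged from 14.01 to 18.5 CPM in WT control and from 63.5 to 78.7 CPM in WT LPS. Mitochondrial reads took 0.31% to 0.359% of counts in WT LPS and 0.539% to 0.631% in WT Dex+LPS, against 0.261% to 0.329% in KO LPS and 0.322% to 0.367% in KO Dex+LPS; their part in the results below was not tested.

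2 features of the KO libraries bear on every comparison with them. Acod1 itself was high in libraries of both labels after LPS (6483 ± 249 CPM in WT, 4995 ± 133 CPM in KO, SD, n = 4). Its mean was also lower in KO in control (5.82 ± 0.75 against 9.89 ± 1.26 CPM) and with Dex (0.490 ± 0.15 against 0.868 ± 0.31 CPM). With both agents it was higher in KO (3933 ± 195 against 2738 ± 34.8 CPM). Since the counts sum all exons and the labels do not give the deleted part, its level does not check the label. All WT libraries were sequenced on lane 3, and all KO LPS and KO Dex+LPS libraries on lane 2, per the paths in the file header. In KO control 3 libraries were on lane 3 and 1 came from a merged file, and in KO Dex 3 were on lane 3 and 1 on lane 2. Lane and genotype can therefore hardly be separated in comparisons of KO with WT after LPS, whereas Dex+LPS against LPS stays within 1 lane in each genotype. The KO Dex+LPS libraries also held a similar median place between WT Dex+LPS and KO LPS for the genes here and for all genes that could be placed. Those values are given with the genotype comparison.

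HIF1 binds a short DNA core, written ACGTG or GCGTG, in the promoters of its targets, so the sequence before each gene's start was examined first. Of the 37 genes, 35 (not Bnip3l and Ndrg1) had a promoter in the RefSeq table (build GRCm38.p6), Ero1l under its other name Ero1a. In the 250 bases before a start, 30 of the 35 genes (85.7%) held at least 1 ACGTG or GCGTG on either strand in at least 1 annotated promoter, against 41.5% of all 27025 genes in the table. Counted by promoter rather than by gene, the shares were 78.4% of 51 promoters and 38.6% of 32851. A match CACGTG reads ACGTG on both strands and counts as overlapping matches. The 5 genes without a core there were Gpi1, Tpi1, Eno2, Vhl and Mif, and the highest number, 5, was found in Ldha and Bnip3. ACGTG alone was found in 21 of the 35 genes and in 18.5% of all genes. The letters AGAACA, 1 side of the site bound by the glucocorticoid receptor, were found in 17.1% of the genes and in 18.2% of all. ACGTG and GCGTG both hold the letters CG, which AGAACA does not. The genes compared were not matched for base composition or expression, and part of the 37 were listed as known HIF1 targets. The shares are therefore given side by side only. A match of letters is a description of the window and not a measured binding site.

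The 250 bases before the start are shown for the 5 genes with a core and the smallest adjusted p for LPS in WT, with each core in capitals (as CACGT or CACGC where it lies on the other strand) and the last base next to the start. The regions on GRCm38 are chr11:120948817-120949066 on the plus strand for Slc16a3, chr4:150236947-150237196 on the plus strand for Eno1 (1 of its 3 annotated promoters), chr10:78009808-78010057 on the minus strand for Pfkl, chr14:45318573-45318822 on the minus strand for Ero1l and chr4:119108495-119108744 on the plus strand for Slc2a1.
Slc16a3: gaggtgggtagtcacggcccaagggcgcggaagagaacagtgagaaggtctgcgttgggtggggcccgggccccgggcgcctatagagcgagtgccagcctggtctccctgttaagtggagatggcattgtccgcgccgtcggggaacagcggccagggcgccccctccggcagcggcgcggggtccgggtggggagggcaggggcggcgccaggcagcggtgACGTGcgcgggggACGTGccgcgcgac
Eno1: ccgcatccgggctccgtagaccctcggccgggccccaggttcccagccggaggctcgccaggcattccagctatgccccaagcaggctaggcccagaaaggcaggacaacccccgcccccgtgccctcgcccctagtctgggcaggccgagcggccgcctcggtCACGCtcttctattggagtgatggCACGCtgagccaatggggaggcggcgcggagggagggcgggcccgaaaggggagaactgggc
Pfkl: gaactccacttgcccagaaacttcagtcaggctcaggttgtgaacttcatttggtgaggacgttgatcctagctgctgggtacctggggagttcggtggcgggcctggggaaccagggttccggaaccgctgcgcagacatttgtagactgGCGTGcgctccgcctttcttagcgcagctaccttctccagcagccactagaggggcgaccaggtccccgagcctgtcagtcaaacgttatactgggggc
Ero1l: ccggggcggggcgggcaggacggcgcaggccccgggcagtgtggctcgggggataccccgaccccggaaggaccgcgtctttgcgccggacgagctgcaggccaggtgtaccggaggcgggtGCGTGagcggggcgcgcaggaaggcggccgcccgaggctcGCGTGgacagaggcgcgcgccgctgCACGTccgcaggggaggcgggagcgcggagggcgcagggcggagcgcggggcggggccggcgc
Slc2a1: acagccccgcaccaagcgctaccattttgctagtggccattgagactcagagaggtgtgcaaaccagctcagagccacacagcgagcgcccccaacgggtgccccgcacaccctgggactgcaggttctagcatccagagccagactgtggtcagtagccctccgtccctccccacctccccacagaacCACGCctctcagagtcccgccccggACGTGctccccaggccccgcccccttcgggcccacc
In Slc16a3 the cores began 27 and 14 bases before the start, and in Slc2a1 61 and 36 bases before it. Ero1l held 3 cores, Eno1 held 2 and Pfkl 1. The levels of these 5 transcripts rose at least 10-fold with LPS, as described below. They were picked by their adjusted p for LPS, so this rise says nothing about the cores. The 5 genes without a core rose with LPS in WT as well, by log2 1.05 (Eno2) to 3.52 (Mif).

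LPS raised nearly all of these genes in both genotypes. In WT, 36 of 37 rose and 1, Pfkfb4, fell (edgeR quasi-likelihood test, Benjamini-Hochberg adjusted p under 0.05), against 37.4% of all tested genes called higher and 38.3% called lower. The median log2 fold change was 2.78 over the 37 genes and -0.02 over all tested genes, and 35 of the 37 rose at least 2-fold, against 15.1% of all genes. In KO the counts were the same, 36 higher and 1 lower, against 36.8% and 39.3% of all genes, with a median of 2.59. Without scaling of library composition the median of all genes moved from -0.02 to -0.28 in WT and from -0.03 to -0.27 in KO, and the split of all called genes from 5393 higher and 5530 lower to 3863 and 7463 in WT and from 5310 and 5667 to 3864 and 7455 in KO; the 36 rises and 1 fall remained in number. Together the 37 genes took 0.794% ± 0.011 (SD, n = 4) of all counts in WT control and 4.55% ± 0.24 in WT LPS. In KO the shares were 0.798% ± 0.011 and 4.37% ± 0.05. The 37 genes were chosen with earlier results of these data known. Their counts beside those of all genes, here and below, are therefore a description and not a test. Of 19 further glycolysis genes tested, 9 rose and 8 fell with LPS in WT, and of 27 further HIF pathway genes 21 rose and 5 fell.

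Dex given with LPS lowered most of them again, and by much more in WT than in KO. In WT, 33 of 37 were lower in Dex+LPS than in LPS and 2, Eno2 and Pfkfb3, were higher, against 34.5% of all genes called lower and 34.6% called higher. The median was -1.77 (all genes 0.01), and 29 of the 37 fell at least 2-fold, against 12% of all genes. In KO, 31 were lower and 1, Eno2, higher, against 17.3% and 20.8% of all genes. The KO median was -0.43 (all genes -0.002), and none of the 37 passed the test with a 2-fold fall, against 0.374% of all genes. All called genes split into 3000 higher and 2499 lower in KO, which turned to 2664 and 3005 with RLE size factors and was 3400 and 2087 without scaling; the counts of 31 and 1 were the same under each. The share of all counts was 1.61% ± 0.02 in WT Dex+LPS and 3.33% ± 0.12 in KO Dex+LPS. These comparisons share the LPS libraries with those of LPS against control, so the values are given side by side only.

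**Figure D1:**
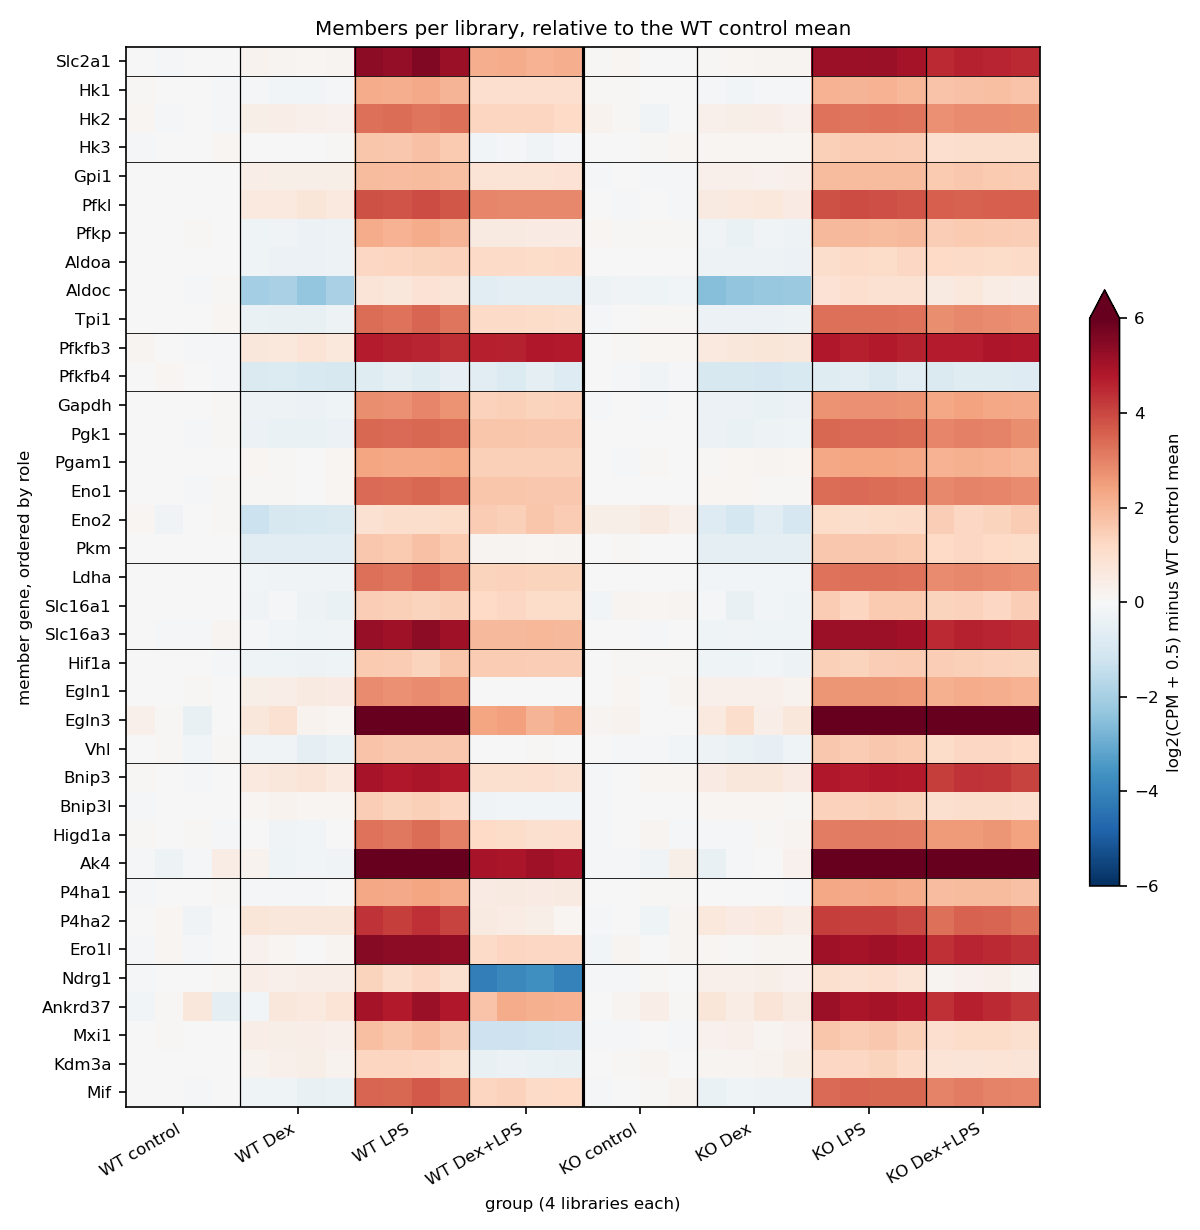
Each row is 1 of the 37 genes, ordered by role, and each column 1 of 32 libraries; the colour gives log2(CPM + 0.5) minus the mean of the WT control libraries, cut off at 6. The LPS columns of both genotypes are red in every row but Pfkfb4, the WT Dex+LPS columns are paler in most rows, with Ndrg1 and Mxi1 blue, and the KO Dex+LPS columns stay close to KO LPS.

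Compared per length, transcripts of glycolytic enzymes were the most abundant of the 37. The length used is the sum of all annotated exon bases of a gene, 4133 for Gapdh and 745 for Mif. It can exceed the length of the transcript that the cells make, so the order of genes depends on the annotation as well. In WT control the highest levels were those of Pkm (468 CPM per kb), Aldoa (336), Gapdh (230.4), Ldha (133) and Pgk1 (121). In WT LPS the order was Gapdh (1579.8 CPM per kb), Pkm (1448), Pgk1 (1298), Ldha (1296), Eno1 (909), Aldoa (832), Mif (809) and Tpi1 (765). Pgk1 and Ldha did not differ there beyond their spread (SD 41.96 and 79.9 CPM per kb, n = 4). The lowest gene in WT control was Ak4, at 0.042 CPM per kb.

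Slc2a1 encodes GLUT1, a widely expressed glucose transporter. It stood at 31.3, 29.5, 31.9 and 31.1 CPM in the WT control libraries and at 1314, 1200.1, 1483 and 1139.6 CPM in WT LPS. With Dex+LPS the WT libraries were at 143, 147, 133 and 144 CPM. The KO LPS libraries were at 1121, 1087, 1133 and 1016 CPM and those of KO Dex+LPS at 704, 775, 751 and 705 CPM. No library of 1 of these groups overlapped another group, and KO Dex+LPS lay far above WT Dex+LPS. LPS raised Slc2a1 in WT (log2 5.37 ± 0.059 SE, adjusted p = 1.3e-51). Dex+LPS against LPS lowered it in WT (log2 -3.18 ± 0.05 SE, adjusted p = 3.8e-44) and in KO (log2 -0.57 ± 0.045 SE, adjusted p = 7.2e-15).

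The hexokinases trap glucose in the cell by phosphorylation, and all 3 rose with LPS and fell with added Dex in both genotypes. Hk2, the inducible form, was at 40.9, 35.8, 38.6 and 35.6 CPM in WT control, 381, 389, 356 and 374 in WT LPS and 91.7, 93.4, 92.8 and 87.99 in WT Dex+LPS. It rose by log2 3.31 ± 0.051 with LPS (adjusted p = 2.3e-45) and changed by log2 -2.04 ± 0.046 with added Dex (adjusted p = 1.3e-37). Hk1, the widely expressed form, was at 187, 181, 177 and 172 CPM in WT control, 836, 813, 871 and 745 in WT LPS and 359, 361, 359.7 and 358 in WT Dex+LPS. Its groups did not overlap, and Dex+LPS stayed about 2-fold above control. Hk3, a form found in myeloid cells, was at 234, 237, 236 and 266 CPM in WT control, 760.3, 751, 812 and 731 in WT LPS and 214, 221, 209 and 226 in WT Dex+LPS. With both agents it was slightly below control (log2 -0.16 ± 0.037 SE, adjusted p = 1.1e-04). The KO Dex+LPS means of Hk1, Hk2 and Hk3 were 602 ± 19.3, 265 ± 9.07 and 503 ± 6.59 CPM (SD, n = 4), each above all 4 WT Dex+LPS libraries.

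The upper steps of glycolysis carry the sugar from glucose 6-phosphate to triose phosphates. All 6 genes for them rose with LPS in both genotypes. Pfkl, the liver-type subunit of phosphofructokinase, was at 42.5, 41.02, 41.5 and 40.9 CPM in WT control and at 593, 572, 629.6 and 554 CPM in WT LPS. In WT Dex+LPS it was at 315, 307, 311 and 309 CPM, so it kept more of its rise than most: added Dex took 50.7% of the LPS rise away on the CPM scale. Tpi1, triose phosphate isomerase, was at 204, 206, 203 and 223 CPM in WT control, 2123, 1983, 2355 and 1958 in WT LPS and 456, 465, 455 and 435 in WT Dex+LPS. Added Dex changed it by log2 -2.22 ± 0.042 in WT and by log2 -0.49 ± 0.04 in KO (adjusted p = 4.8e-41 and 1.5e-14). Gpi1, glucose phosphate isomerase, was at 477, 486, 479.6 and 479 CPM in WT control, 1773, 1718, 1784 and 1659.6 in WT LPS and 843, 851, 859 and 862 in WT Dex+LPS, again with no overlap.

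Pfkp and the aldolases differed in how Dex moved them. Pfkp, the platelet-type phosphofructokinase subunit, rose by log2 2.15 ± 0.039 with LPS and changed by log2 -1.63 ± 0.038 with added Dex in WT. Aldoa, the main aldolase, rose by log2 1.31 ± 0.031 and changed by only log2 -0.16 ± 0.031 with added Dex in WT (adjusted p = 7.0e-06, but 0.0509 without scaling of library composition). In KO that change was log2 -0.0017 ± 0.031 (adjusted p = 0.974), and the libraries overlapped. Aldoc, a minor aldolase, was the gene of the 37 that Dex alone lowered most, from 89.2 ± 4.82 to 21.01 ± 2.41 CPM (SD, n = 4) in WT. A second identifier named Aldoa in the table held 194 counts over all libraries against 994458 and was not used.

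Pfkfb3 and Pfkfb4 make fructose 2,6-bisphosphate, a strong activator of phosphofructokinase, and they went opposite ways. Pfkfb3 was at 42.97, 38.2, 37.5 and 37.1 CPM in WT control, 1040.2, 961, 938 and 857 in WT LPS and 1009, 972, 1108 and 1063 in WT Dex+LPS. It rose by log2 4.61 ± 0.057 with LPS, and the LPS and Dex+LPS libraries overlapped. The small rise with added Dex in WT (log2 0.13 ± 0.046 SE, adjusted p = 0.011) was lost when WT LPS replicate 4 (adjusted p = 0.0978) or WT Dex+LPS replicate 3 (0.0710) was left out and when those groups were fitted alone (0.0535). In KO the value was log2 0.062 ± 0.046 (adjusted p = 0.308). Pfkfb4 was the 1 gene that fell with LPS: it was at 44.2, 48.4, 44.04 and 42.7 CPM in WT control, 26.6, 29.5, 27.1 and 31.2 in WT LPS and 28.9, 24.97, 30.3 and 25.9 in WT Dex+LPS. Dex alone took it to 24.6, 25.5, 23.7 and 22.5 CPM, below every control library, and added Dex did not pass the test under LPS (log2 -0.056 ± 0.063 SE, adjusted p = 0.436).

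The lower steps yield ATP and pyruvate, and all 6 genes rose with LPS in both genotypes. Eno1, the main enolase, was at 463, 475, 454 and 490.4 CPM in WT control, 4998, 4794, 5137 and 4635 in WT LPS and 1472, 1499, 1433 and 1436 in WT Dex+LPS. In KO it was at 4766, 4902, 4799 and 4687 CPM with LPS and 3508, 3729.9, 3609 and 3341 CPM with both agents. Its fall with added Dex was thus log2 -1.74 ± 0.032 in WT and log2 -0.43 ± 0.031 in KO (adjusted p = 2.8e-41 and 3.6e-16). Pgk1, phosphoglycerate kinase, was at 264, 272, 262 and 289 CPM in WT control, 2987, 2849, 2999 and 2814 in WT LPS and 868, 873, 844 and 824 in WT Dex+LPS. Gapdh, often used as a constant reference gene, was at 927, 951, 926 and 1005 CPM in WT control, 6499, 6270.2, 7208 and 6140.3 in WT LPS and 2449.9, 2548, 2439 and 2446 in WT Dex+LPS. Gapdh was therefore not constant here: it rose with LPS (log2 2.78 ± 0.039 SE, adjusted p = 2.8e-47).

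Pkm, pyruvate kinase, rose by log2 1.63 ± 0.033 with LPS and returned to nearly its control level with both agents (log2 0.15 ± 0.033 SE, adjusted p = 5.8e-05 against control in WT); that last difference turned to -0.01 without scaling of library composition. Pgam1, phosphoglycerate mutase, changed by log2 -0.91 ± 0.031 with added Dex in WT, less than Eno1, Pgk1, Pkm and Gapdh. Eno2, the neuronal enolase, went against the other lower enzymes. It was at 19.5, 15.3, 18.3 and 19.01 CPM in WT control, 7.06, 8.95, 9.31 and 9.59 in WT Dex, 34.3, 37.7, 37.2 and 39.6 in WT LPS and 52.5, 49.4, 57.1 and 52.2 in WT Dex+LPS. Dex by itself thus lowered Eno2, and Dex added to LPS raised it (log2 0.51 ± 0.069 SE, adjusted p = 7.4e-09), and the KO libraries moved the same ways (log2 -1.30 ± 0.086 and log2 0.29 ± 0.069).

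Lactate dehydrogenase A turns pyruvate into lactate, and the monocarboxylate transporters MCT4 (Slc16a3) and MCT1 (Slc16a1) carry lactate across the membrane. Ldha was at 444, 439, 429 and 450.5 CPM in WT control, 4308, 4109.9, 4658 and 4087 in WT LPS and 1116, 1153, 1119 and 1129 in WT Dex+LPS. The KO libraries were at 4283, 4292, 4337 and 4183 CPM with LPS and 3102, 3246, 3195 and 2921 CPM with both agents, so Ldha was nearly as high in KO as in WT with LPS and well above WT with both. Slc16a3 was at 39.3, 37.6, 37.9 and 44.2 CPM in WT control, 1503, 1379.8, 1659.9 and 1361 in WT LPS and 156, 155, 158 and 156 in WT Dex+LPS. It rose by log2 5.22 ± 0.053 with LPS and changed by log2 -3.24 ± 0.046 with added Dex. Slc16a1 was at 11.2, 11.1, 11.3 and 11.6 CPM in WT control, 32.6, 31.1, 28.8 and 30.8 in WT LPS and 26.7, 27.6, 24.95 and 24.7 in WT Dex+LPS. Added Dex changed it far less (log2 -0.25 ± 0.071 SE, adjusted p = 0.00195, but adjusted p = 0.0586 without scaling of library composition), and in KO it did not pass the test (log2 -0.12 ± 0.07 SE, adjusted p = 0.169).

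**Figure D2:**
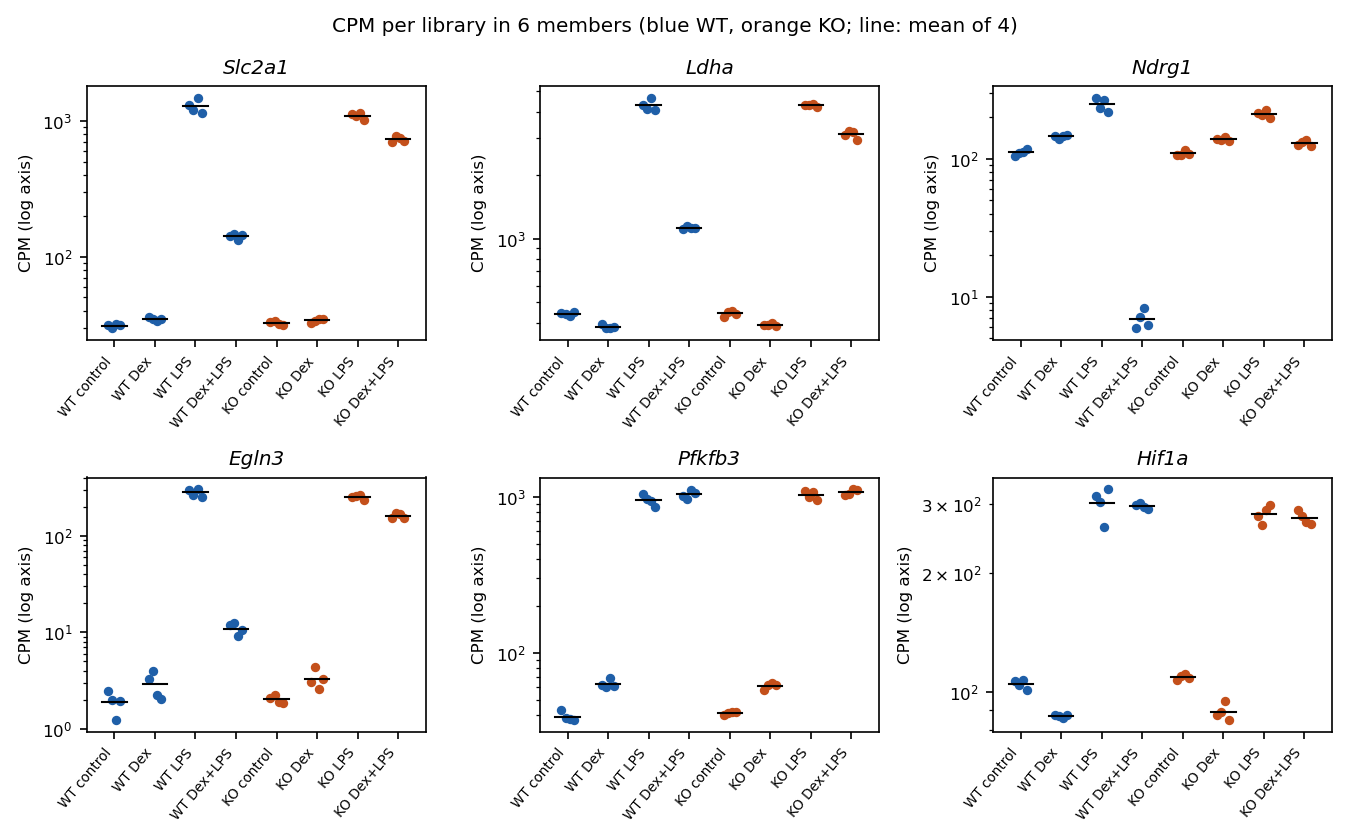
CPM of 6 genes on log axes, with 1 point for each of the 4 libraries of each group and a line at the mean. Slc2a1, Ldha and Egln3 are high with LPS and fall in WT Dex+LPS but much less in KO Dex+LPS, Ndrg1 falls below its control level in WT Dex+LPS, and Pfkfb3 and Hif1a stay at their LPS level when Dex is added.

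Among the controllers of HIF1 in WT, added Dex left the LPS rise of the HIF1α transcript in place and took most of the rise of the hydroxylases Egln1 and Egln3 away. Hif1a was at 107, 104, 107 and 101 CPM in WT control, 315, 303, 262 and 328 in WT LPS and 298, 302, 294 and 291 in WT Dex+LPS. It rose by log2 1.53 ± 0.044 with LPS, the WT LPS and Dex+LPS libraries overlapped, and the difference with added Dex did not pass the test (log2 -0.027 ± 0.042 SE, adjusted p = 0.57). Protein was not measured. Egln3, the hydroxylase PHD3, was at 2.46, 2.00, 1.23 and 1.92 CPM in WT control, 304, 268, 308 and 256 in WT LPS and 11.8, 12.4, 9.07 and 10.5 in WT Dex+LPS. In KO Dex+LPS it was at 154, 174, 168 and 155 CPM, more than 10-fold above every WT Dex+LPS library. It rose by log2 7.22 ± 0.11 with LPS and changed by log2 -4.69 ± 0.081 with added Dex in WT (adjusted p = 1.0e-42). Egln1, the hydroxylase PHD2, was at 47.6, 48.98, 51.2 and 47.4 CPM in WT control, 356, 333, 356 and 321 in WT LPS and 49.8, 49.98, 47.7 and 50.1 in WT Dex+LPS. Its WT Dex+LPS libraries overlapped control, as did those of Vhl, and neither gene differed from control by the test (adjusted p = 0.739 and 0.716). In KO, Dex took 33.4% of the LPS rise of Egln1 away and 36.6% of that of Egln3, against 99.8% and 96.8% in WT.

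Of the HIF1 targets in mitochondria, Ak4, an adenylate kinase, showed the largest rise of the 37 genes. It had 15 counts over the 4 WT control libraries and was at 347, 312, 313 and 309 CPM in WT LPS, well above control (log2 10.66 ± 0.13 SE, adjusted p = 4.6e-50). With both agents it was at 20.5, 19.8, 22.5 and 20.6 CPM in WT and at 196, 224, 219 and 184 CPM in KO. Bnip3, a receptor for the removal of mitochondria by autophagy, was at 14.4, 13.9, 12.99 and 13.2 CPM in WT control, 429.9, 396, 419 and 376 in WT LPS and 26.8, 27.3, 27.7 and 25.8 in WT Dex+LPS. In KO Dex+LPS it was at 253, 281, 277 and 234 CPM. With both agents the WT libraries of Bnip3 lay above control and far below LPS, and every KO library lay far above every WT library. Higd1a, a mitochondrial inner membrane protein induced by hypoxia, was at 17.4, 16.2, 17.04 and 14.95 CPM in WT control, 161, 149, 174 and 135 in WT LPS and 38.4, 35.2, 32.6 and 33.3 in WT Dex+LPS. Bnip3l, a relative of Bnip3, rose by log2 1.38 ± 0.036 with LPS and ended log2 -0.18 ± 0.037 from control with both agents in WT; rows named as its pseudogene held 1.04% as many counts.

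P4ha1 and P4ha2 encode subunits of collagen prolyl hydroxylase, and Ero1l an oxidase that forms disulfide bonds in the endoplasmic reticulum. Ero1l was at 35.5, 40.02, 34.96 and 37.6 CPM in WT control, 1658, 1568, 1567 and 1495 in WT LPS and 81.98, 91.3, 87.7 and 89.1 in WT Dex+LPS. The KO libraries were at 1269, 1210.0, 1288 and 1157 CPM with LPS and 779, 878, 823 and 749 CPM with both. Added Dex changed Ero1l by log2 -4.17 ± 0.054 in WT and log2 -0.61 ± 0.046 in KO (adjusted p = 1.1e-47 and 1.5e-15). P4ha2 was at 8.17, 8.61, 6.83 and 8.17 CPM in WT control, 167, 151, 177 and 139.7 in WT LPS and 11.6, 11.1, 10.3 and 8.66 in WT Dex+LPS, where its lowest library lay just above the highest of control. P4ha1 was at 69.4, 73.02, 72.5 and 75.9 CPM in WT control, 359.6, 348, 372 and 342 in WT LPS and 104, 104, 102 and 104 in WT Dex+LPS, with no overlap.

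Of the other HIF1 targets, Ndrg1 stood out and is given per library here after its values were seen. Ndrg1, a differentiation and stress gene, was at 104, 109.9, 112 and 117 CPM in WT control, 278, 234, 265 and 219.8 in WT LPS and 5.86, 7.06, 8.32 and 6.26 in WT Dex+LPS. The KO Dex+LPS libraries were at 125, 133, 137 and 123 CPM. Ndrg1 in WT Dex+LPS was far below every other group, control included (log2 -4.01 ± 0.076 SE, adjusted p = 2.5e-41), while Dex alone raised it (log2 0.39 ± 0.052 SE, adjusted p = 1.2e-08). Mxi1, a Max-binding antagonist of Myc, was at 40.3, 42.7, 40.9 and 40.2 CPM in WT control, 144, 132, 149 and 126 in WT LPS and 16.9, 17.2, 17.5 and 18.3 in WT Dex+LPS, so it too ended below control (log2 -1.23 ± 0.059). Kdm3a, a histone demethylase, ended log2 -0.40 ± 0.048 from control. Mif, a cytokine, was at 53.95, 52.5, 50.4 and 52.7 CPM in WT control, 588, 576, 672 and 575 in WT LPS and 129, 136, 118 and 119 in WT Dex+LPS. Ankrd37, an ankyrin repeat gene induced by HIF1, was at 0.752, 0.952, 1.69 and 0.427 CPM in WT control, 44.1, 36.7, 49.3 and 38.7 in WT LPS and 4.09, 6.09, 5.51 and 5.48 in WT Dex+LPS.

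**Figure D3:**
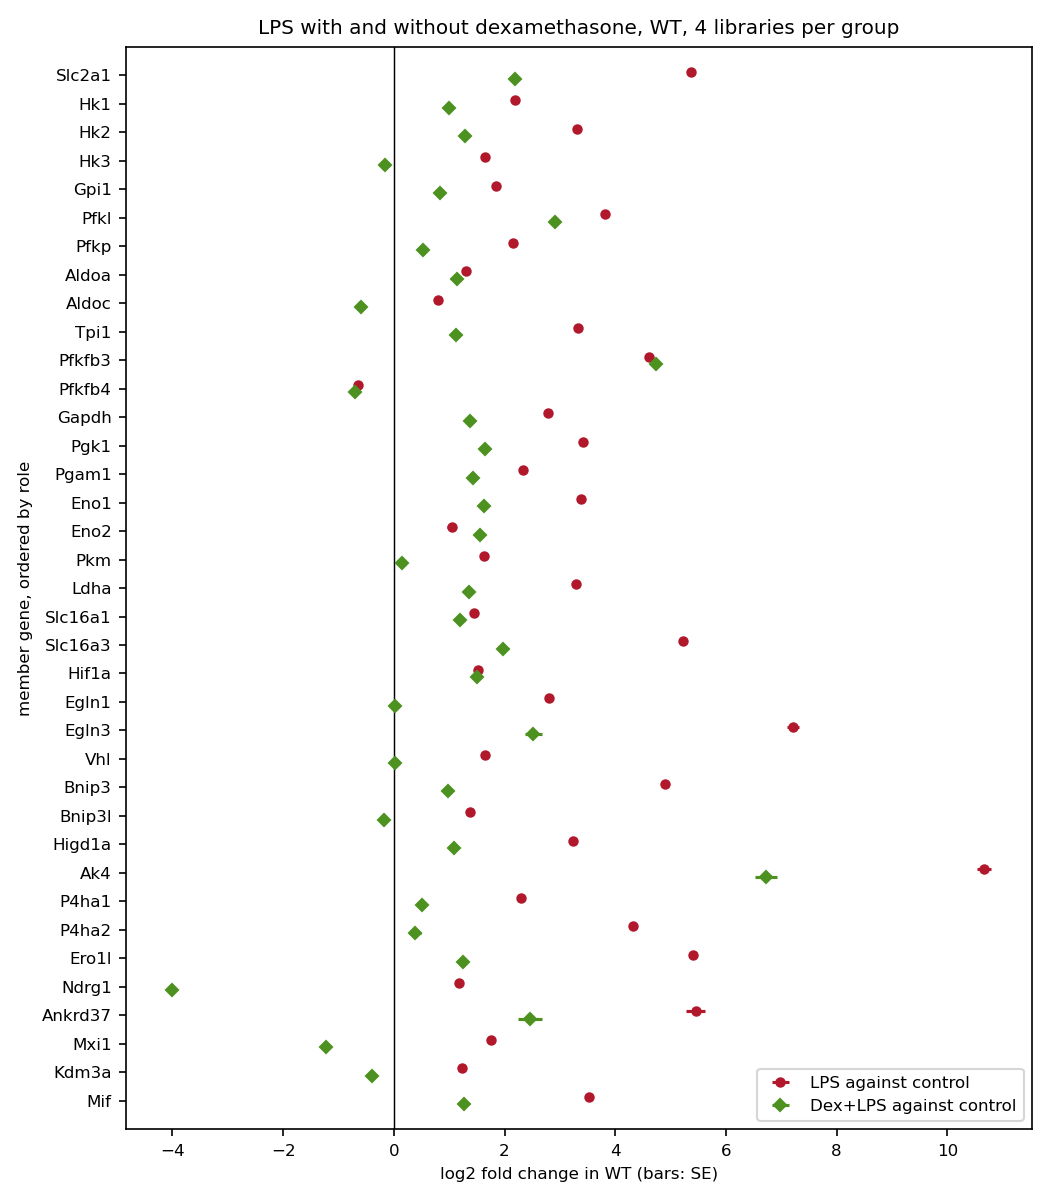
Log2 fold change against control in WT for LPS (circles) and Dex+LPS (diamonds), with bars of 1 SE, n = 4 libraries per group. Pfkfb3 and Hif1a have nearly the same value with and without Dex, and most other genes lie nearer 0 with Dex. With Dex, Ndrg1 (-4.01) and Mxi1 (-1.23) lie furthest below 0. Pfkfb4, Aldoc, Kdm3a, Bnip3l and Hk3 also lie below 0 there, from -0.71 (Pfkfb4) to -0.16 (Hk3).

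Against control, WT cells given both agents still had 28 of the 37 genes higher and 7 lower, against 34.5% and 37.8% of all genes (without scaling of library composition, 27 and 9, with 3958 of all genes higher and 6760 lower in place of 4981 and 5455). The largest rises were those of Ak4 (log2 6.72 ± 0.20 SE, adjusted p = 4.3e-33), Pfkfb3 (log2 4.74 ± 0.057) and Pfkl (log2 2.91 ± 0.04), and the genes below control were Ndrg1, Mxi1, Pfkfb4, Aldoc, Kdm3a, Bnip3l and Hk3. In KO, 36 were higher and 1, Pfkfb4, lower, against 37.5% and 36.5% of all genes (4011 higher and 7011 lower without that scaling, in place of 5409 and 5270). Ak4 (log2 9.99 ± 0.13), Egln3 (log2 6.34 ± 0.11) and Ankrd37 (log2 4.80 ± 0.16) led there. Against Dex alone, WT Dex+LPS had 30 higher and 7 lower (35.5% and 37.8% of all genes), led by Ak4 (log2 7.18 ± 0.20) and Pfkfb3 (log2 4.04 ± 0.054) upwards and Ndrg1 (log2 -4.40 ± 0.075) and Mxi1 (log2 -1.59 ± 0.057) downwards. KO Dex+LPS had 36 higher and 0 lower (38.5% and 37.4% of all genes) by edgeR; Ndrg1 was the gene that did not pass, at log2 -0.092 ± 0.052. DESeq2 and an unadjusted p under 0.05 also gave 0 lower, and the fit without scaling gave 1. Without scaling, the splits of all genes against Dex were 3883 higher and 7080 lower in WT (5123 and 5458 with it) and 4039 and 7223 in KO (5559 and 5390 with it).

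Dex alone changed most of these genes by less than 2-fold. In WT, 14 rose and 16 fell, against 21.2% and 28.2% of all genes, with a median of -0.05, and 2 of the 37 fell at least 2-fold, against 6.07% of all genes. In KO the counts were also 14 and 16, against 20.9% and 27.6%, with a median of 0.01. The largest falls in WT were those of Aldoc (log2 -2.08 ± 0.062 SE, adjusted p = 3.7e-32), Eno2 (log2 -1.04 ± 0.092) and Pfkfb4 (log2 -0.90 ± 0.06). The largest rises were those of P4ha2 (log2 0.71 ± 0.10 SE, adjusted p = 5.5e-08), Pfkfb3 (log2 0.69 ± 0.059) and Bnip3 (log2 0.68 ± 0.074). Of the 21 glycolysis and lactate genes 6 rose and 13 fell in WT, and of the 16 HIF1 genes 8 rose and 3 fell. Leaving out single libraries removed the WT calls of Slc2a1, Slc16a1 and Egln3 (2 libraries each, adjusted p up to 0.154) and of Pgam1 (4 libraries, up to 0.119), and the KO calls of Eno1 (4 libraries, up to 0.0728) and Pgam1 (1 library, 0.0678).

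The effect of Dex with LPS differed from its effect without LPS for most of the genes. In WT the difference was negative for 31 and positive for 5 of the 37, against 28.4% and 32% of all genes, and was lowest for Ndrg1 (log2 -5.57 ± 0.092 SE, adjusted p = 2.5e-42), Egln3 (log2 -5.31 ± 0.24) and P4ha2 (log2 -4.64 ± 0.13) and highest for Eno2 (log2 1.54 ± 0.11), Pfkfb4 (log2 0.84 ± 0.087) and Aldoc (log2 0.70 ± 0.083). In KO it was negative for 24 and positive for 6, against 16.2% and 25.7%, lowest for Egln3 (log2 -1.37 ± 0.21) and highest for Aldoc (log2 1.73 ± 0.082).

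On the CPM scale, the share of the LPS rise that Dex took away was computed for the 33 genes that LPS raised at least 2-fold in both genotypes. In WT its median was 87.4% (interquartile range 72.8% to 96.7%), and in KO 32.7% (26.95% to 35.2%). Over all 1934 genes so raised, the medians were 68.9% in WT (interquartile range 14.7% to 92.9%) and 24.3% in KO (2.29% to 35.3%). The medians of the 33 genes lie within these ranges. The WT share was lowest for Pfkfb3 (-9.78%), Hif1a (2.90%), Aldoa (17.9%) and Slc16a1 (24.9%), and it passed 100% for Hk3, Bnip3l, Kdm3a and Mxi1, which ended below control. For Slc2a1 it was 91.2% in WT and 33.7% in KO, and for Ldha 82.1% and 30.2%.

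Few of the genes differed between genotypes in the other conditions. In untreated cells 1 gene was higher and 1 lower in KO, against 0.243% and 0.298% of all genes (35 higher and 43 lower, or 45 and 28 without scaling of library composition): Eno2 (log2 0.38 ± 0.079 SE, adjusted p = 0.00653) and Aldoc (log2 -0.23 ± 0.054 SE, adjusted p = 0.0252). Without 1 library the Eno2 call was lost in 2 cases (adjusted p up to 0.0909) and the Aldoc call in 6 (up to 0.135). With Dex alone, 2 were lower in KO and 0 higher (0.36% and 0.541% of all genes): Aldoc (log2 -0.30 ± 0.074 SE, adjusted p = 0.0325) and Egln1 (log2 -0.18 ± 0.046 SE, adjusted p = 0.0413), which were lost without 1 of 5 and 1 of 7 libraries (up to 0.182 and 0.229). DESeq2 also found 0 higher, and 2 were higher at an unadjusted p under 0.05. With LPS, 10 were lower and 0 higher in KO by edgeR, against 5.51% and 4.66% of all genes. The lowest were Ero1l (log2 -0.35 ± 0.046 SE, adjusted p = 1.7e-07), Ndrg1 (log2 -0.24 ± 0.05), Slc2a1 (log2 -0.24 ± 0.045), Pfkp (log2 -0.21 ± 0.036), Mxi1 (log2 -0.18 ± 0.045) and P4ha2 (log2 -0.17 ± 0.057, lost without 1 of 5 libraries, adjusted p up to 0.232). With the sequencing lane as a term 0 of the 10 passed, and genotype and lane cannot be told apart here. The log2 differences with that term were -0.38 for Ero1l (adjusted p = 0.0634), -0.29 for Slc2a1 and -0.20 for Pfkp. They were -0.19 for Ndrg1 and Mxi1, -0.18 for Hk3 and -0.01 for P4ha2. The size of the lane term rests on 1 library, KO Dex replicate 4, the only one in that fit on another lane than its group. These values therefore do not measure the part of lane. DESeq2 also found 0 higher, and 2 were higher at an unadjusted p under 0.05. Without scaling of library composition 2 of the 37 were higher and 9 lower, and all called genes split into 1016 higher and 547 lower in place of 673 and 795.

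The effect of LPS against control was compared between genotypes directly. It was smaller in KO for 7 genes and larger for 1, Aldoc (log2 0.36 ± 0.073 SE, adjusted p = 0.00119), against 1.64% and 2.07% of all genes (299 larger and 237 smaller, or 371 and 190 without scaling of library composition, where 4 of the 37 were smaller). The smaller effects were those of Ero1l (log2 -0.39 ± 0.077 SE, adjusted p = 8.3e-04), Slc2a1 (log2 -0.30 ± 0.078), Pfkp (log2 -0.29 ± 0.053), Egln1 (log2 -0.22 ± 0.062), Hk3 (log2 -0.22 ± 0.051), Hk1 (log2 -0.17 ± 0.05) and Aldoa (log2 -0.15 ± 0.043). Leaving out single libraries removed the calls of Aldoa (11 libraries), Hk1 (8), Egln1 (6) and Slc2a1 (1), and with the lane term 1 of the 8, Ero1l, passed. The log2 values with that term were -0.34 for Slc2a1, -0.27 for Pfkp, -0.25 for Hk3 and 0.18 for Aldoc, none of which passed. The effect of Dex alone differed between genotypes for 0 of the 37 genes and 0 of all genes (0%) by edgeR and by DESeq2; at an unadjusted p under 0.05 it differed for 2 and for 617.

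With both agents the genotypes stood far apart. In KO Dex+LPS 32 of the 37 genes were higher than in WT Dex+LPS and 1, Hif1a, lower, against 28.5% and 27.9% of all genes, with a median of 1.28 (all genes -0.0047). The largest differences were those of Ndrg1 (log2 4.24 ± 0.075 SE, adjusted p = 1.8e-41), Egln3 (log2 3.89 ± 0.082), Ak4 (log2 3.30 ± 0.064), Bnip3 (log2 3.28 ± 0.055), Ero1l (log2 3.20 ± 0.052) and P4ha2 (log2 3.11 ± 0.077). The Hif1a difference (log2 -0.097 ± 0.042 SE, adjusted p = 0.0436) was lost without 1 of 6 libraries (adjusted p up to 0.162). With the lane as a term, 30 were higher and 0 lower, and Ak4 (adjusted p = 0.167), Slc16a1 (0.231) and Hif1a (0.965) no longer passed. That term rests on KO Dex replicate 4 alone, a library without LPS. Ak4 was near 0 with Dex alone (0.080 to 0.302 CPM in WT Dex), and its log2 difference with the term was 1.84. The part of lane in these losses cannot be read from that fit.

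The effect of Dex under LPS, which compares libraries of 1 lane within each genotype, was more positive in KO than in WT for 32 of the 37 genes and more negative for 0 by edgeR (1 at an unadjusted p under 0.05 and 1 by DESeq2), against 23.9% and 21.5% of all genes. The median difference was 1.31 (all genes 0.0004). It was largest for Ndrg1 (log2 4.48 ± 0.092 SE, adjusted p = 2.4e-38), Egln3 (log2 4.04 ± 0.10 SE, adjusted p = 8.1e-35), Ero1l (log2 3.56 ± 0.069), Bnip3 (log2 3.35 ± 0.071), Ak4 (log2 3.34 ± 0.082) and P4ha2 (log2 3.28 ± 0.097). The 5 genes that did not pass were Pfkfb3, Pfkfb4, Eno2, Slc16a1 and Hif1a. Their differences ran from -0.21 (Eno2) to 0.12 (Slc16a1). Aldoa passed with a small difference (log2 0.16 ± 0.043 SE, adjusted p = 0.00184), which did not pass without scaling of library composition (adjusted p = 0.0701). All genes split into 3446 more positive and 3106 more negative, which turned to 3137 and 3437 with RLE size factors and to 2901 and 3805 without scaling.

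**Figure D4:**
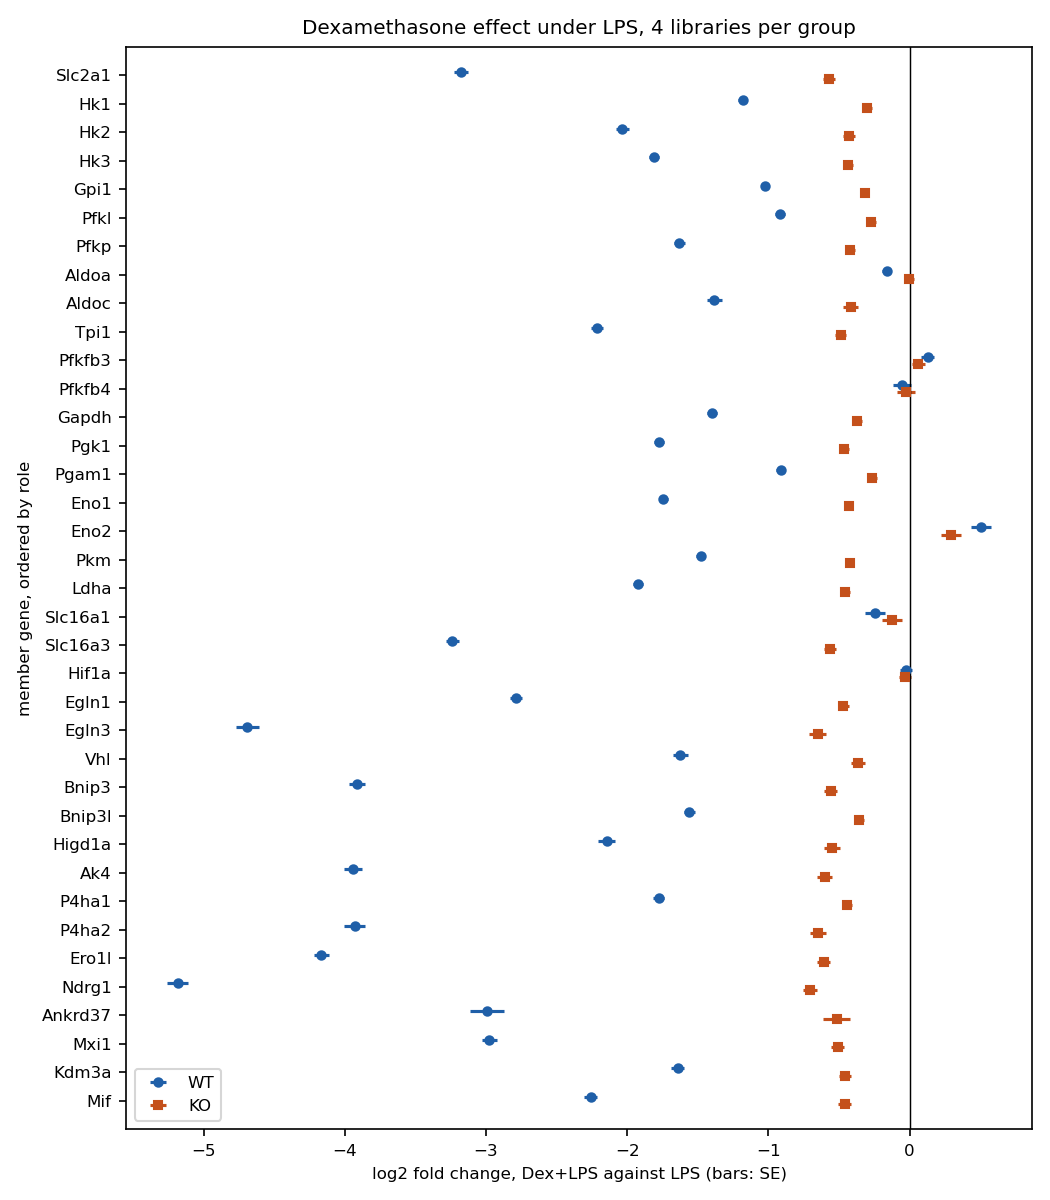
Log2 fold change of Dex+LPS against LPS in WT (circles) and KO (squares), with bars of 1 SE, n = 4 libraries per group. The WT values run from -5.18 (Ndrg1) to 0.51 (Eno2), and the KO values lie between -0.71 and 0.29.

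Other genes gave similar values. For each gene whose WT Dex+LPS and KO LPS means differed at least 2-fold, with at least 10 CPM in the higher of them and a call for Dex under LPS in WT, the place of KO Dex+LPS was put on a scale from 0 (the WT Dex+LPS mean) to 100 (the KO LPS mean). Over the 29 genes here that met this, the place had a median of 62.9 and ran from 58.2 to 66.8. Over all 722 such genes that Dex lowered the median was 62.8 (interquartile range 60.1 to 65.4), and over the 668 that it raised 63.7 (59.7 to 68.2). By library the median place of the 29 genes was 60.9, 67.3, 64.9 and 57.5 in KO Dex+LPS replicates 1 to 4. The 29 genes thus had nearly the median place of all such genes that Dex lowered, which include them, and of those that it raised. The cause was not tested. Since Acod1 does not check the KO label either, the counts do not show whether the KO Dex+LPS libraries are as labelled, and each comparison with them rests on the label.

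**Figure D5:**
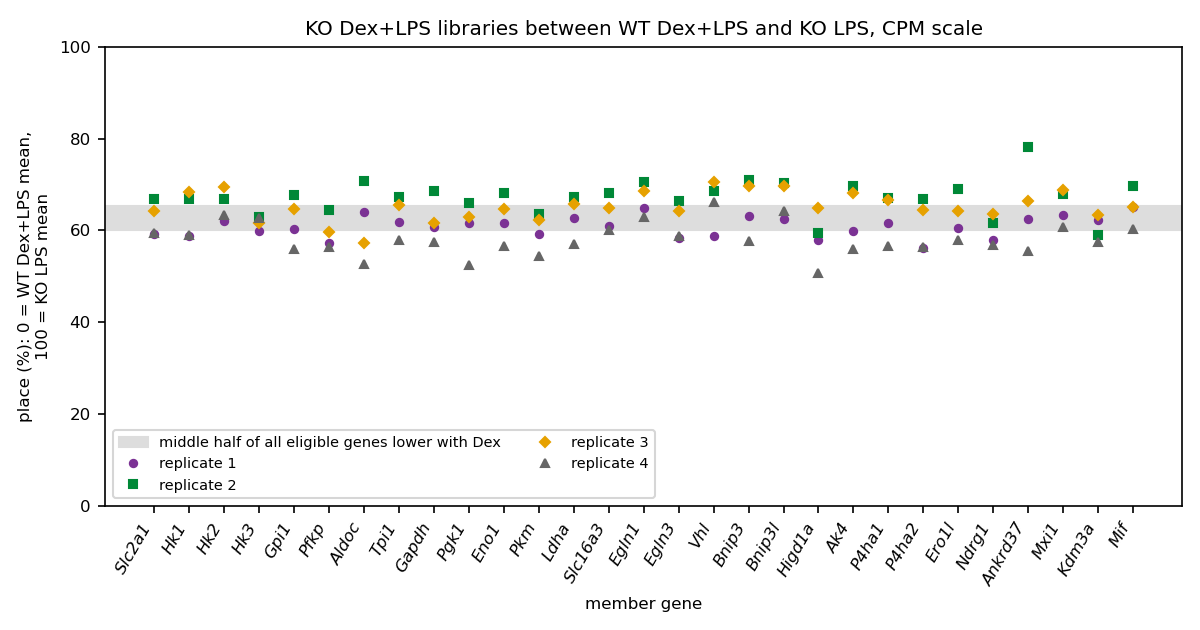
Place of each of the 4 KO Dex+LPS libraries (1 symbol per replicate) between the WT Dex+LPS mean (0) and the KO LPS mean (100) on the CPM scale, for the 29 genes that could be placed. The points form a flat band, and the grey band is the interquartile range of all such genes lowered by Dex, 60.1 to 65.4.

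Other genes of the same pathways were described from lists of 26 further glycolysis genes and 30 further HIF pathway genes. Of the glycolysis list 19 were tested; with LPS in WT 9 rose and 8 fell (median 0.06), against 37.4% and 38.3% of all genes. With added Dex 8 rose and 6 fell (median 0.07), against 34.6% and 34.5%. Slc2a6, which encodes another glucose transporter, went from 247 ± 9.37 to 426 ± 9.60 CPM (SD, n = 4) with LPS in WT. Among the most raised with LPS was Pgm1, a phosphoglucomutase that went from 27.1 ± 2.41 to 373 ± 21.03 CPM; the most lowered were Slc16a7, the transporter MCT2, from 66.5 ± 2.19 to 10.5 ± 0.62 CPM, and Slc2a3, the glucose transporter GLUT3, from 29.9 ± 1.87 to 14.5 ± 1.00 CPM. With added Dex in WT, Pgm1 went to 63.7 ± 0.53 CPM, while Ldhb rose to 4.41 ± 0.37 from 1.30 ± 0.3 CPM and Slc16a7 to 25.1 ± 1.20 CPM.

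Of the HIF list 27 were tested; with LPS in WT 21 rose and 5 fell (median 2.50), against 37.4% and 38.3% of all genes. With added Dex 7 rose and 18 fell in WT (median -1.38), against 34.6% and 34.5%, and 6 rose and 14 fell in KO (median -0.39), against 20.8% and 17.3%. Egln2, a further hydroxylase, was at 63.9 ± 5.17 CPM in WT LPS and 74.7 ± 1.92 in WT Dex+LPS. With genes at 0 in 1 group set at a floor of 3 counts over the group, these medians had the same values. Adm, which encodes adrenomedullin, had 0 counts in WT control and 62.3 ± 15.2 CPM in WT LPS, at least 1635-fold higher by that floor, and Stc2, which encodes a stanniocalcin, rose from 0 counts to 3.24 ± 0.37 CPM, at least 84.1-fold. The most lowered were Ppfia4, from 29.5 ± 0.89 to 0.701 ± 0.33 CPM, and Epas1, which encodes HIF2α, from 11.04 ± 0.87 to 1.34 ± 0.1 CPM. With added Dex in WT, Stc2 went to 0 counts and Adm to 0.302 ± 0.2 CPM, while Hif3a, a HIF relative that can act as an inhibitor, went from 0.124 ± 0.095 to 16.4 ± 0.95 CPM and Epas1 to 6.76 ± 0.41 CPM. Hif3a was also at 7.24 ± 0.85 CPM with Dex alone.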

How the data were processed

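RNA sequencing read pairs of 32 libraries (8 groups of 4) were counted per gene by the authors with featureCounts 2.0.0, per the file headers: exons joined by gene, GENCODE vM32 annotation, strand ignored and no option for multiply mapping reads. The deposited values are raw counts. STAR and GRCm38 (mm10) are named in the submitters' processing notes, and the version of STAR is not given in the sources used here. Coordinates in the table are not those of GRCm38, so none are printed and positions given are those of the RefSeq promoter table. Because strand was ignored, reads of genes that overlap cannot be told apart.

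The counts of all 32 libraries were fitted together in edgeR 4.0.16 (R 4.3.3, limma 3.58.1) after filterByExpr and TMM scaling, with 1 mean per group and 24 residual degrees of freedom, and 19 contrasts were tested by the quasi-likelihood F test with Benjamini-Hochberg adjustment over all 14427 tested genes. The SE of a log2 fold change is its size divided by the square root of F. Levels are CPM on TMM-scaled library sizes. The common biological coefficient of variation was 4.36%. Identifiers without a symbol (4924, 0.846% of counts) were tested but not named. Some listed genes are not reported here. The calling steps were tested on simulated data.

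The 37 genes and all lists were chosen with earlier results of these data known. Per-library values are given for up to 3 genes per role with the smallest adjusted p for LPS in WT, and for genes that went against their role, and each contrast names up to 3 genes in each direction (6 in comparisons of genotypes). Alternatives were DESeq2 1.42.0, RLE factors, no scaling, no filter, stricter calls, the compared groups alone, a lane term, a block for the replicate number and omission of single libraries in turn. A fit of the lane 3 libraries alone for control and Dex was chosen after seeing the data. All 48 replicate pairs differed by more than sampling noise (chi-square per degree of freedom 2.01 to 16.7).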

Additional observations from a re-analysis of the deposited data

Results flagged for a closer look

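Among 296 gene and group combinations, 12 (4.05%) had a library far from the other 3 of its group, and chance gives about 1 in 20. In CPM, Hk3 in WT control replicate 4 was 265.684 (others up to 237), Tpi1 in the same library 223.174 (others up to 206), Gpi1 in WT Dex replicate 1 was 627.146 (others up to 621), in KO control replicate 2 483.579 (up to 463) and in KO Dex replicate 3 580.713 (others from 593). Gapdh in WT Dex+LPS replicate 2 was 2548.09 (others up to 2449.9) and Egln1 in WT Dex+LPS replicate 3 was 47.7483 (others from 49.8). Vhl in WT LPS replicate 1 was 100.964 (others up to 93.8), Ak4 in the same library 347.365 (up to 313), and Mif in WT LPS replicate 3 671.65 (up to 588). Bnip3l in KO Dex replicate 4 was 140.056 (others from 146) and Ak4 in WT Dex replicate 1 was 0.302434 (others up to 0.100087).

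In the test of the difference between genotypes, the log2 effect of LPS was larger in KO for Aldoc (0.3619). It was smaller for Ero1l (-0.392521), Slc2a1 (-0.298217), Pfkp (-0.290254), Egln1 (-0.221696), Hk3 (-0.218437) and Hk1 (-0.173371). The log2 effect of Dex under LPS was higher in KO for Ndrg1 (4.47645), Egln3 (4.03981), Ero1l (3.557), Bnip3 (3.35404), Ak4 (3.34121) and P4ha2 (3.28325). All KO LPS libraries were on another lane than WT, and lane and genotype cannot be told apart in the first set.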

How the results depend on the processing

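Counts are given as all genes called, with those of the 37 genes in parentheses. A 2-fold minimum moved LPS against control to 4670 in WT and 4596 in KO, Dex alone to 1391 (2) in WT and 1352 (2) in KO, Dex+LPS against LPS to 3204 in WT and 565 (0) in KO, Dex+LPS against Dex to 3951 (24) in WT and 4329 in KO, and Dex+LPS against control to 3981 in WT and 4184 in KO. It moved KO against WT to 8 (0) in control, 12 (0) with Dex, 65 (0) with LPS and 1590 with both, the LPS effect by genotype to 30 (0), the Dex effect under LPS by genotype to 1546, and the Dex effect with minus without LPS to 3025 in WT and 1368 (7) in KO.

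An adjusted p under 0.01 gave 38 (1), 62 (0) and 829 genes for KO against WT in control, Dex and LPS, and 260 (4) for the LPS effect by genotype. Fitting only the compared groups gave 121, 401 (5) and 667 (5) for the same 3 conditions, 314 (3) for the LPS effect and 1 for the Dex effect by genotype. The lane term gave 1 of the 37 genes in control, 75 (1) with Dex, 112 (0) with LPS, 4834 with both, and 113 (1) for the LPS effect. Lane 3 libraries alone, a fit chosen after seeing the data, gave 1 of the 37 genes in control and 72 (1) with Dex. No filter gave 137, 201 and 6 genes for control, Dex and the Dex effect by genotype. No scaling gave 5 of the 37 genes for the LPS effect by genotype. The causes of these changes were not tested.

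Leaving out 1 library at a time gave 47 to 73 (0 to 2) genes for KO against WT in control, 69 to 119 (0 to 1) with Dex, 5 to 9 of the 37 genes for the LPS effect and 0 to 3 of all genes for the Dex effect by genotype. Without scaling the log2 value changed sign for Pkm in Dex+LPS against control in WT (0.15 to -0.01) and for Pfkfb4 in Dex+LPS against Dex in WT (0.19 to -0.0055) and KO (0.19 to -0.037), none past the threshold. The replicate numbers were not used to pair the libraries. Over 112 pairs of the same number the correlation of deviations ran from -0.029 to 0.060. Its median was 0.0076, against -0.0025 for pairs of other numbers. By mean correlation 18 of 32 libraries went best with their own number, more than an even spread over the 4 numbers would give. What libraries of the same number share was not tested. With the replicate block, 37 of the 37 genes were called for LPS in WT, and no count moved by over 1.5 times (130 became 168 for KO against WT with Dex). Counting depth limited Ak4 in control most, at 15 counts over 4 WT libraries.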
